A study of Rattus norvegicus with 8 samples.

Results

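A set of 10 genes that mark microglia and their activation were read out in the dorsal ipsilateral spinal cord of nerve-injured rats treated with a histone deacetylase inhibitor (HDACI) or with vehicle. They are Csf1, Csf1r, Trem2, Tyrobp, Itgam, Aif1, Ptprc, Laptm5, Irf8 and Irf5, chosen by gene symbol. Each of the 10 is measured by 1 probe set that the array annotation assigns to that symbol alone, and together they make up 10 of the 14506 genes tested. All rats were adult male Wistar animals with an L5 spinal nerve transection, and all received an intrathecal catheter connected to an osmotic pump. The HDACI group was infused with MS-275, an inhibitor of class I histone deacetylases, at 30 nmol per day, and the vehicle group with the solvent (dimethyl sulfoxide in saline). Cord was taken on day 14, and 4 arrays per group were hybridized. Each array held RNA from a separate biological replicate. The label that describes the infusion carries the same wording on all 8 arrays, so the groups rest on the sample titles. No uninjured rat was among these 8 arrays, so injury itself cannot be read from them, and no cell type was purified.

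Microglia are the resident macrophages of the central nervous system. Their survival and proliferation depend on signalling through the colony-stimulating factor 1 receptor, and after peripheral nerve injury they become reactive and proliferate in the dorsal horn on the injured side, where they are known to contribute to pain hypersensitivity. Many of their genes are switched on by PU.1 (encoded by Spi1), a transcription factor that binds DNA around a purine-rich GGAA core, in part together with interferon regulatory factors such as IRF8.

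Values are log2 signals after robust multiarray averaging (RMA), so that a difference of 1 is a doubling of signal. The 8 arrays had medians of 7.95 to 7.98 and correlated with each other at r = 0.993 to 0.997 across genes, and no array was a copy of another. As a gauge of background, the 1105 olfactory receptor genes on the array had a median signal of 5.22 (95th percentile, 6.93). At least 99.8% of them lay below each of the 10 microglial genes, so that all 10 stood above this background.

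Because many microglial genes are switched on by PU.1, the DNA just upstream of the start is shown for some of the 10. Itgam, Laptm5, Ptprc and Trem2 were chosen because they hold GAGGAA, a short core of PU.1 sites. Irf5, which does not hold it, is shown beside them. Csf1r also holds GAGGAA, but its window is not printed. The RefSeq table of the GRCr8 rat assembly held a promoter for 7 of the 10 genes, namely Csf1r, Irf5, Irf8, Itgam, Laptm5, Ptprc and Trem2, and not for Aif1, Csf1 and Tyrobp. Each line below holds the 250 bases before the start in the direction of the gene, and capitals mark GAGGAA or, for the opposite strand, TTCCTC. The windows are chr1:192089342-192089591 on the plus strand for Itgam, chr5:148371630-148371879 on the plus strand for Laptm5, chr13:52259747-52259996 on the minus strand for Ptprc, chr9:20151780-20152029 on the minus strand for Trem2 and chr4:59093205-59093454 on the plus strand for Irf5.
Itgam: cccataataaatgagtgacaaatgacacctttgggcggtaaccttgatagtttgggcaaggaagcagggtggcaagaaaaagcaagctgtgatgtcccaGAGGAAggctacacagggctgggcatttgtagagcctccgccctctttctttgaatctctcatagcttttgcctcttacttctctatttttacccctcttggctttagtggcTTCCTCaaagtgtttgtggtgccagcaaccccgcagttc
Laptm5: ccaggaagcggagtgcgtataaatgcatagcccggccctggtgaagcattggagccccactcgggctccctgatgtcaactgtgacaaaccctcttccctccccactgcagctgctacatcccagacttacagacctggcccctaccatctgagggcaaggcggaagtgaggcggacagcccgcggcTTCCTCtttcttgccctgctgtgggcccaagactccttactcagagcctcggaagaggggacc
Ptprc: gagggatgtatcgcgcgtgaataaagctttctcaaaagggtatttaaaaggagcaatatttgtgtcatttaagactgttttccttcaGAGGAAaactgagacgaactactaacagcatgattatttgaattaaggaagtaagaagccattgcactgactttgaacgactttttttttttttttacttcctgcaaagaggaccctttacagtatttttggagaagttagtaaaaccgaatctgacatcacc
Trem2: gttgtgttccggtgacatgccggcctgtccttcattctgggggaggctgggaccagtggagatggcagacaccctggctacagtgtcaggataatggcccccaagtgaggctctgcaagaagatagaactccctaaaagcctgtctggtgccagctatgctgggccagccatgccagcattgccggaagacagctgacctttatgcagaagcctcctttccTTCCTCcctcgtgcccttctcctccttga
Irf5: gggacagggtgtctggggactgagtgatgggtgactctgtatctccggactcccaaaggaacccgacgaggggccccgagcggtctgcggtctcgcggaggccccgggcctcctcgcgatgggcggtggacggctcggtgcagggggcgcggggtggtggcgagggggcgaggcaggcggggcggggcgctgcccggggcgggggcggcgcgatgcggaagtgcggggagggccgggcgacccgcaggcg

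Both strands of these windows were searched. The longer PU.1 motif GAGGAAGT was found in 0 of the 7 member promoters and in 2.04% of the 33469 promoters in the table. The composite site of PU.1 and an interferon regulatory factor (GGAA, then 2 bases of any kind, then GAAA) was found in 0 of 7 members and in 2.48% of all promoters, and the interferon response element (GAAA, 2 bases of any kind, GAAA) in 0 of 7 and 3.41%. The shorter core GAGGAA, which is contained in GAGGAAGT and was searched only after the longer motifs had been, was present in 5 of 7 members (Csf1r, Itgam, Laptm5, Ptprc and Trem2) and in 23.3% of all promoters. It lay 29 to 24 bases before the start in Trem2 and 63 to 58 bases before it in Laptm5, in both on the opposite strand. In Ptprc it lay 163 to 158 bases before the start on the strand of the gene, and Itgam held 1 copy on each strand, at 151 to 146 and at 39 to 34 bases. A match of 6 letters describes the sequence and is not evidence of binding.

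The main comparison asked whether HDACI treatment changed the level of microglial transcripts at day 14. With limma and Benjamini-Hochberg adjustment over all 14506 genes, 0 of the 10 microglial genes differed between HDACI and vehicle at an adjusted p under 0.05, against a background of 0 genes (0%). At an unadjusted p under 0.05 the count was also 0 of 10, against 1124 genes in all (7.75%), of which 2.79% were higher and 4.96% lower with HDACI. At the unadjusted threshold of 0.01 that the study used, 0 of 10 passed against 1.46% of all genes, and the groups were separated without overlap for 0 of 10 against 5.02%. All 10 log2 fold changes were above 0, against 42.1% of all genes, but they were small, between 0.02 (Irf8) and 0.21 (Itgam) with a median of 0.09, where the median of all genes was -0.01. The 10 genes varied together across arrays, so their common sign is not 10 separate observations. In bulk tissue, a change in the number of cells of a type and a change in RNA per cell cannot be told apart. Each value below may reflect either or both.

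**Figure D1:**
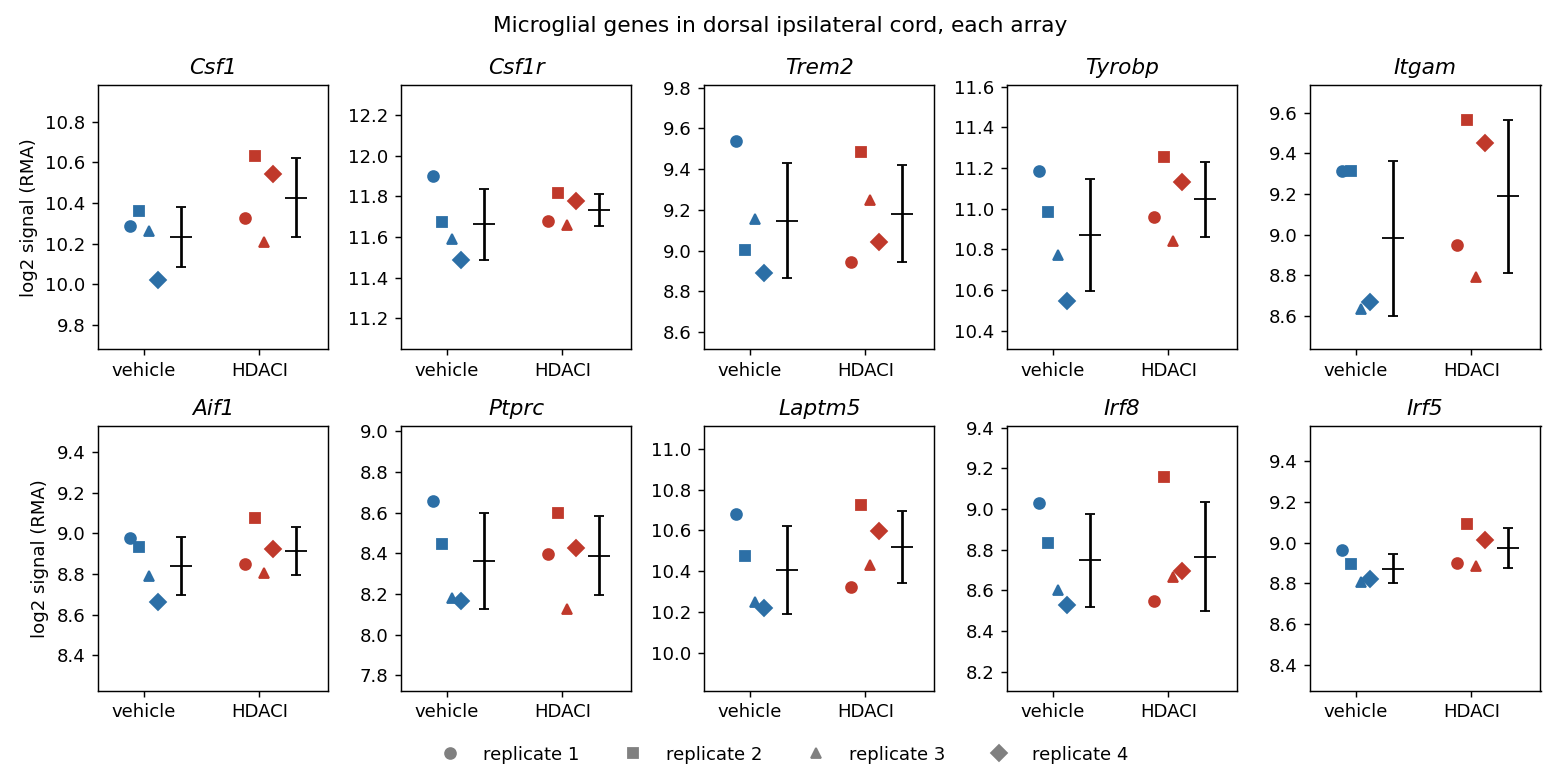
Log2 signal of each microglial gene on the 4 vehicle arrays (blue) and the 4 HDACI arrays (red), with a marker shape for each replicate number and black bars for mean ± SD; all panels span the same number of log2 units. In every panel the groups overlap, with HDACI replicate 2 and vehicle replicate 1 high and vehicle replicate 4 low in most panels.

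Csf1 encodes the growth factor CSF1, a ligand of the CSF1 receptor that injured sensory neurons supply to dorsal horn microglia. The arrays measured RNA in the cord, not the protein that these neurons supply. Csf1 log2 signals were 10.32, 10.63, 10.21 and 10.54 on HDACI arrays 1 to 4 and 10.29, 10.36, 10.26 and 10.02 on vehicle arrays 1 to 4. The groups overlapped, with HDACI replicates 2 and 4 above every vehicle array and HDACI replicate 3 below 3 of the 4. HDACI differed from vehicle by a log2 fold change of 0.19 (SE 0.10, 95% interval -0.04 to 0.43, adjusted p = 0.687 by limma), the smallest adjusted p of the 10 genes. A two-sided exact permutation test over the 70 assignments of 4 arrays gave p = 0.229, where 0.0286 is the smallest p possible. The estimate ranged from 0.12 without vehicle replicate 4 to 0.27 without HDACI replicate 3, where its unadjusted limma p was 0.0258.

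Csf1r, the receptor for CSF1 and interleukin 34, had log2 signals of 11.68, 11.82, 11.66 and 11.78 with HDACI and of 11.90, 11.67, 11.59 and 11.49 with vehicle. The 4 HDACI arrays lay inside the span of the vehicle arrays, whose highest and lowest values were the extremes of all 8. Its log2 fold change was 0.07 (SE 0.08, 95% interval -0.12 to 0.26, adjusted p = 0.876 by limma). It was 0.01 without vehicle replicate 4 and 0.15 without vehicle replicate 1, where its unadjusted limma p was 0.0437.

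Trem2 encodes a surface receptor for lipids and apolipoproteins that signals through the adaptor TYROBP. Its log2 signals were 8.95, 9.48, 9.25 and 9.04 with HDACI and 9.54, 9.003, 9.16 and 8.89 with vehicle. Vehicle replicate 1 and HDACI replicate 2 stood above the other arrays, 1 in each group. The difference amounted to a log2 fold change of 0.03 (SE 0.15, 95% interval -0.31 to 0.38, adjusted p = 0.971 by limma). It turned to -0.07 without HDACI replicate 2 and was 0.16 without vehicle replicate 1.

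Tyrobp, the adaptor (DAP12) that carries the signal of TREM2 and related receptors into the cell, had log2 signals of 10.96, 11.25, 10.84 and 11.13 with HDACI and 11.19, 10.98, 10.77 and 10.55 with vehicle. HDACI replicate 2 and vehicle replicate 1 were again the highest arrays, and vehicle replicate 4 was the lowest. The log2 fold change of 0.17 (SE 0.14, 95% interval -0.13 to 0.48, adjusted p = 0.782 by limma) fell within the spread of the arrays. It was 0.07 without vehicle replicate 4 and 0.28 without vehicle replicate 1.

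Itgam encodes CD11b, the integrin chain that forms complement receptor 3 and is stained with the antibody OX-42 in rat tissue. Its log2 signals were 8.95, 9.56, 8.79 and 9.45 with HDACI and 9.31, 9.31, 8.64 and 8.67 with vehicle. Each group held a high pair and a low pair of arrays, and the low HDACI pair lay below the high vehicle pair. The log2 fold change was the largest of the 10 genes, 0.21, but so was its error (SE 0.22, 95% interval -0.28 to 0.70, adjusted p = 0.857 by limma). It was 0.08 without HDACI replicate 2 and 0.34 without HDACI replicate 3.

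Aif1 encodes IBA1, the actin-bundling protein used to stain microglia, and its log2 signals were 8.85, 9.08, 8.80 and 8.92 with HDACI and 8.98, 8.93, 8.79 and 8.66 with vehicle. HDACI replicate 2 was the highest array and vehicle replicate 4 the lowest, with the other 6 from both groups between them. Its log2 fold change was 0.07 (SE 0.08, 95% interval -0.11 to 0.26, adjusted p = 0.865 by limma). It was 0.01 without vehicle replicate 4 and 0.12 without vehicle replicate 1.

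Ptprc encodes CD45, the phosphatase that all leukocytes carry and that resident microglia carry at a low level. Its log2 signals were 8.40, 8.60, 8.13 and 8.43 with HDACI and 8.65, 8.45, 8.18 and 8.17 with vehicle. It was the only member with its lowest value in the HDACI group, on replicate 3, and its highest was vehicle replicate 1. The difference amounted to a log2 fold change of 0.03 (SE 0.13, 95% interval -0.26 to 0.31, adjusted p = 0.977 by limma). It turned to -0.05 without HDACI replicate 2 and was 0.12 without vehicle replicate 1.

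Laptm5, a lysosomal membrane protein of blood-lineage cells, had log2 signals of 10.32, 10.73, 10.43 and 10.60 with HDACI and 10.68, 10.48, 10.25 and 10.22 with vehicle. The 2 highest arrays, HDACI replicate 2 and vehicle replicate 1, again came from different groups. HDACI differed from vehicle by a log2 fold change of 0.11 (SE 0.12, 95% interval -0.15 to 0.38, adjusted p = 0.857 by limma). It was 0.04 without HDACI replicate 2 and 0.20 without vehicle replicate 1.

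Irf8, a transcription factor required for normal microglial development and for their reaction to nerve injury, had log2 signals of 8.55, 9.16, 8.66 and 8.70 with HDACI and 9.03, 8.83, 8.60 and 8.53 with vehicle. HDACI replicate 2 was the highest array, and the other 3 HDACI arrays lay within the span of the vehicle arrays. Its log2 fold change was 0.02 (SE 0.15, 95% interval -0.31 to 0.34, adjusted p = 0.988 by limma). It turned to -0.11 without HDACI replicate 2 and was 0.11 without vehicle replicate 1.

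Irf5, which acts downstream of IRF8 in reactive microglia and drives expression of the purinergic receptor P2X4, had log2 signals of 8.90, 9.09, 8.89 and 9.01 with HDACI and 8.97, 8.90, 8.81 and 8.82 with vehicle. The groups overlapped over a narrow range, since this gene varied least of the 10. The difference amounted to a log2 fold change of 0.10 (SE 0.06, 95% interval -0.03 to 0.23, adjusted p = 0.716 by limma). It was 0.06 without HDACI replicate 2 and 0.13 without vehicle replicate 1.

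As linear ratios of HDACI to vehicle, the 95% intervals of the 10 genes lay between 0.807 (lower bound for Irf8) and 1.62 (upper bound for Itgam). The narrowest was that of Irf5, from 0.977 to 1.18. The two-sided exact permutation p-values of the 10 genes ran from 0.171 (Irf5) to 0.971 (Ptprc). For each of the 10 genes, leaving out some single array moved the estimate by over 1.5 times. A difference that missed the threshold does not show that the groups were alike.

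**Figure D2:**
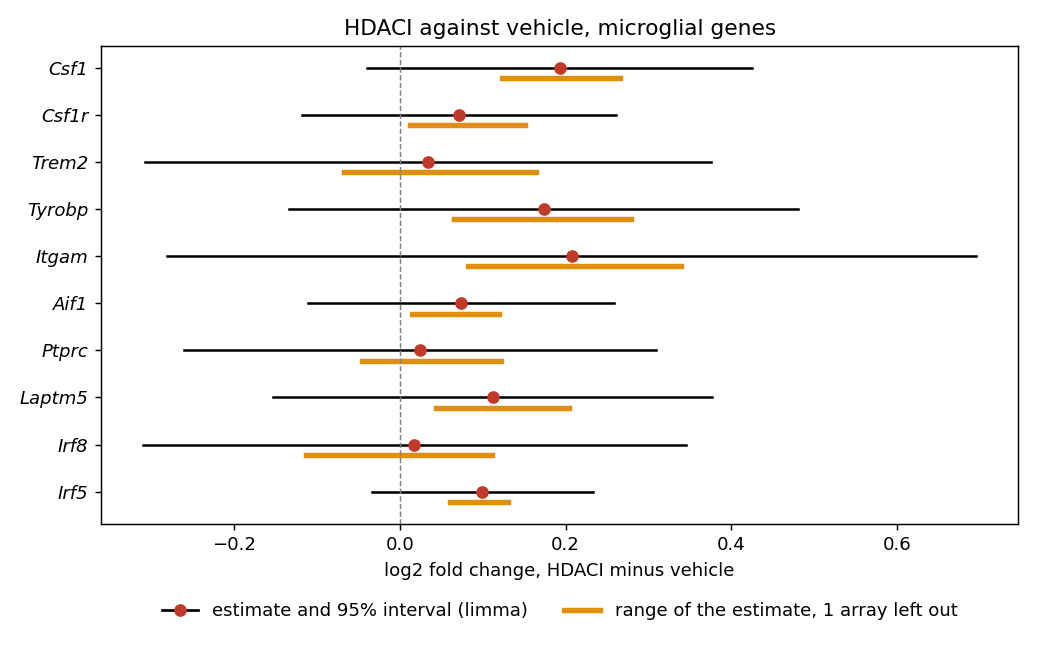
Log2 fold change of each microglial gene, HDACI minus vehicle, with its 95% interval from limma (black) and the range of the estimate when each of the 8 arrays was left out in turn (orange). Every interval includes 0, and the leave-one-out ranges of Trem2, Ptprc and Irf8 also cross 0.

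The spread among rats of the same group was wide for these genes. Over all genes the median residual SD within groups was 0.09 log2 units, and among the microglial genes it ran from 0.09 (Irf5, percentile 49.6 of all genes) to 0.38 (Itgam, percentile 99.1). For 7 of the 10 it lay above the 90th percentile of all genes. The wide spread had a common shape. HDACI replicate 2 gave the highest value for 7 genes and was among the top 2 arrays for all 10. Vehicle replicate 1 gave the highest value for the other 3 (Csf1r, Trem2 and Ptprc) and was among the top 2 for 7. At the other end, vehicle replicate 4 was lowest for 7 genes and among the bottom 2 for all 10. After each gene was centred on its own mean, the average deviation over the 10 genes was 0.28 log2 units on HDACI replicate 2, 0.19 on vehicle replicate 1, 0.10 on HDACI replicate 4 and 0.03 on vehicle replicate 2. It was -0.08 on HDACI replicate 1, -0.10 on HDACI replicate 3, -0.16 on vehicle replicate 3 and -0.26 on vehicle replicate 4. The HDACI and vehicle arrays were thus mixed along this order.

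**Figure D3:**
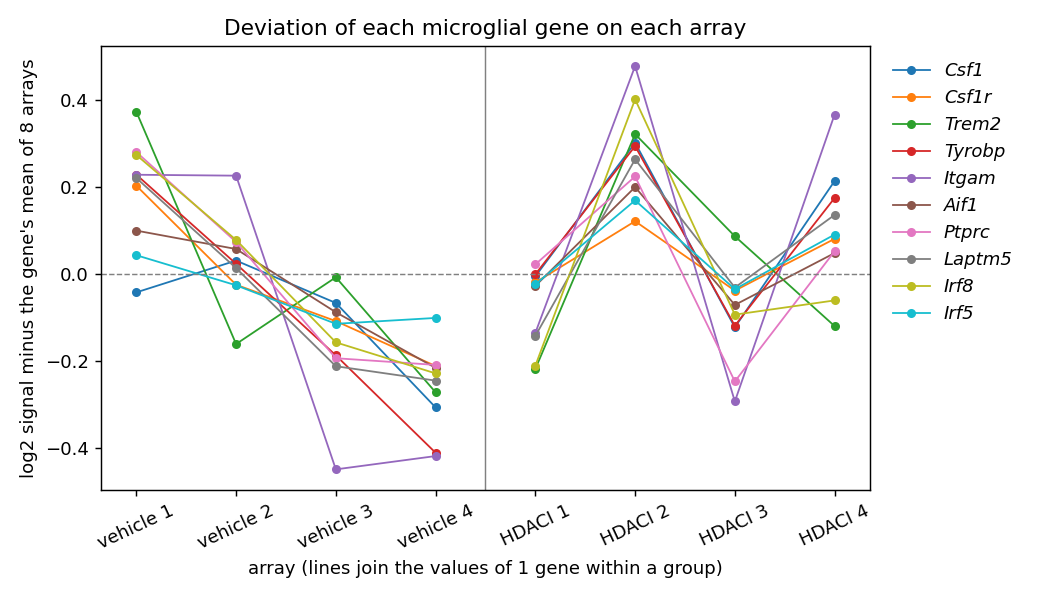
Deviation of each microglial gene from its own mean over the 8 arrays, in log2 units, with 1 coloured line per gene within each group. The lines keep together on most arrays, from an average of 0.28 on HDACI replicate 2 to -0.26 on vehicle replicate 4.

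Across the 8 arrays, all 45 pairs of the 10 genes had a positive Pearson correlation, with a median r of 0.847 (range 0.388 to 0.968) and a median Spearman rho of 0.833. After Benjamini-Hochberg adjustment over the 45 pairs, 36 pairs had an exact permutation p under 0.05 for r and 30 for rho. The pairs share arrays and genes and are not independent of each other. With the group means removed, the median r was 0.856, so the common variation lay within the groups. Leaving out for each pair the 2 arrays farthest from the median of the first gene lowered the median r to 0.738. Of the 45 pairs, 32 then stayed above 0.5 and 13 did not, of which 3 fell below 0.

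The closest pair was Aif1 and Tyrobp, with r = 0.968 (exact permutation p = 7.44e-05, adjusted 0.00335), rho = 0.976 (exact p = 0.000397, adjusted 0.00595) and r = 0.929 without the 2 farthest arrays. Csf1r and Tyrobp followed with r = 0.956 (exact p = 0.000496, adjusted 0.00684) and rho = 0.952 (exact p = 0.00114, adjusted 0.00733), and r was 0.976 without the 2 farthest arrays. For Csf1r and Laptm5, r was 0.930 (exact p = 0.000992, adjusted 0.00684) and rho 0.905 (exact p = 0.00456, adjusted 0.0128), with r = 0.941 without the 2 farthest arrays. The loosest pair was Csf1 and Trem2, with r = 0.388 (exact p = 0.346, adjusted 0.346) and rho = 0.238 (exact p = 0.582, adjusted 0.582), and r was -0.438 without the 2 farthest arrays. Laptm5 had the highest median r with its 9 partners, 0.912, and Trem2 the lowest, 0.646. Csf1, a ligand that cells other than microglia also make, had a median r of 0.750 with its partners.

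**Figure D4:**
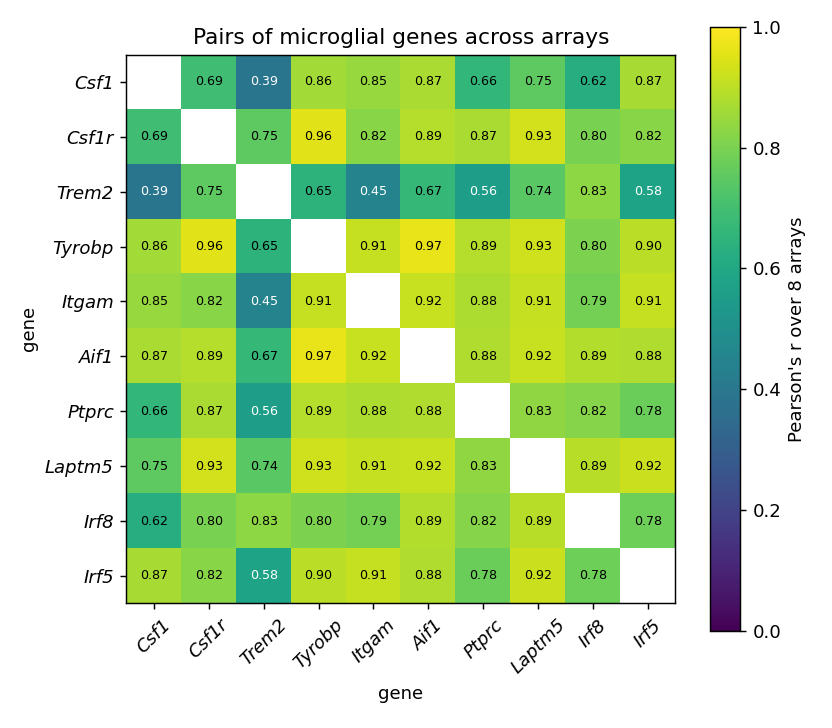
Pearson's r over the 8 arrays for each pair of the 10 microglial genes (colour scale from 0 to 1, value in each cell). All cells are positive, with Aif1 and Tyrobp highest at 0.97 and Csf1 and Trem2 lowest at 0.39.

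The genes that act with these 10 were followed through 10 further lists, some of which overlap and 4 of which also hold some of the 10. In none did a gene pass adjustment. Counts and medians of fold changes are given without the 10 genes themselves, and over all genes 42.1% were above 0, with a median of -0.01. Of 10 further genes of CSF1 receptor and TREM2-TYROBP signalling, 7 had log2 fold changes above 0 (median 0.07) and 0 passed an unadjusted p under 0.05. The kinases Fgr, Syk and Lyn gave 0.18, 0.09 and 0.11, and the phospholipase Plcg2 gave -0.12. All 6 further integrins and Fc receptors were above 0 (median 0.13) with 0 past that threshold, among them Fcgr2b at 0.24 (SE 0.13), Fcgr1a at 0.22, Itgb2 at 0.16 and Fcer1g at 0.09. These shrank to 0.16 (Fcgr2b) and 0.09 (Itgb2) without HDACI replicate 2, to 0.12 (Fcgr1a) without vehicle replicate 4 and to 0.0041 (Fcer1g) without vehicle replicate 3. They rose to 0.35 (Fcgr2b) without HDACI replicate 3 and to 0.31 (Fcgr1a), 0.25 (Itgb2) and 0.16 (Fcer1g) without vehicle replicate 1. Of 6 further interferon regulatory factors, 5 were above 0 (median 0.06) and 0 passed, with Irf1 at 0.14, Irf4 at 0.07 and Irf9 at 0.06. The 7 myeloid transcription factors had a median of 0.06 and 0 passed, including Spi1 (PU.1) at 0.17 (SE 0.14), Fli1 at 0.14, Cebpb at 0.07 and Cebpa at 0.06. Spi1 was 0.06 without vehicle replicate 4 and 0.30 without vehicle replicate 1, where its unadjusted limma p was 0.0145. Of 40 such genes, the up to 4 with the smallest unadjusted p in each list and F13a1, 31 moved by over 1.5 times when some single array was left out.

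Genes of surveying microglia showed no common direction. Of 13 homeostatic genes, 8 were above 0 (median 0.07) and 0 passed an unadjusted p under 0.05. Their mean was highest on vehicle replicate 2 (9.85), just above HDACI replicate 2 (9.84), and lowest on vehicle replicate 3 (9.51). The array order of this mean differed from that of the 10 genes, but single genes of the list varied in this. Cx3cr1, P2ry12, P2ry13, Gpr34 and Sall1 had HDACI replicate 2 and vehicle replicate 1 as their top 2 arrays, as did most of the 10 genes. Tmem119 and Selplg were highest on vehicle replicates 2 and 4. Olfml3, a secreted glycoprotein, was 0.34 (SE 0.16) and the fractalkine receptor Cx3cr1 0.11, while the membrane protein Tmem119 was -0.19 (SE 0.13) and the phagocytic receptor kinase Mertk -0.13. Of 17 genes of microglial signalling after nerve injury, 12 were above 0 (median 0.05) and 0 passed, with Il18 at 0.21, the cyclooxygenase Ptgs1 at 0.18, Tlr4 at 0.14 and Il1b at 0.06.

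Of 14 further signalling genes common to leukocytes, 10 were above 0 (median 0.03). Only Cybb passed an unadjusted p under 0.05, with lower signal under HDACI, where 4.96% of all genes did. Cybb encodes the catalytic chain of the phagocyte NADPH oxidase (NOX2), which makes superoxide. Its log2 signals were 9.09, 9.11, 8.40 and 8.85 with HDACI and 9.88, 10.02, 8.97 and 9.50 with vehicle. Among the vehicle arrays, only replicate 3 lay within the range of the HDACI arrays. The estimate was a log2 fold change of -0.73 (SE 0.23, adjusted p = 0.610 by limma), and it stayed between -0.94 and -0.58 when single arrays were left out. Its partner in the oxidase, Ncf1, was 0.07, and Lcp2 and Cd53, 2 other leukocyte genes, were both 0.12.

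Disease-associated microglia express lysosomal, lipid-handling and growth factor genes. Of 19 such genes, 12 were above 0 (median 0.10), and 3 passed an unadjusted p under 0.05 with higher signal under HDACI, where 2.79% of all genes did. Ctsl, a lysosomal protease, had log2 signals of 10.74, 11.16, 10.88 and 10.97 with HDACI and 10.68, 10.75, 10.72 and 10.59 with vehicle, and only HDACI replicate 1 lay within the vehicle range. Its log2 fold change was 0.25 (SE 0.08, adjusted p = 0.610 by limma). Cd68, a lysosomal glycoprotein of phagocytes, was 0.30 (SE 0.11, adjusted p = 0.610 by limma), and the growth factor Igf1 0.34 (SE 0.12, adjusted p = 0.626). Cd68 and Igf1 passed that unadjusted threshold in 6 and 5 of the 8 fits that left out 1 array. B2m, the light chain of MHC class I, was 0.14. Of the 19 genes, 7 were below 0, and Spp1 was the farthest at -0.33 (SE 0.33, adjusted p = 0.846 by limma).

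Of 10 C1q and phagocytic genes, 8 were above 0 (median 0.20). Cd68 alone passed the unadjusted threshold, with higher signal under HDACI, where 2.79% of all genes did. C1qc, a chain of the first complement component, was 0.40 (SE 0.19, adjusted p = 0.664 by limma), and Pros1, a bridging molecule for uptake of dying cells, was 0.24. C1qc was 0.26 without vehicle replicate 4 and 0.52 without vehicle replicate 1. Of 9 cell division genes, 3 were above 0 (median -0.03), close to the 42.1% and -0.01 of all genes. Cdk1, the mitotic kinase, was 0.17 and alone passed the unadjusted threshold (adjusted p = 0.627 by limma), where 2.79% of all genes were higher. Its signals of 5.74 to 6.10 overlapped those of olfactory receptor genes. Ccnb1 was -0.10, Mcm5 0.10 and Pcna -0.11. Over the same 8 arrays, and given as a description only, the median pairwise r with the members included was 0.857 within the integrins and Fc receptors, 0.759 within the leukocyte-common genes and -0.06 within the cell division genes. Several cell division genes, such as Cdk1, had signals near background. Markers of other cells gave 0.809 (leptomeningeal fibroblast), 0.727 (oligodendrocyte), 0.635 (endothelium), 0.499 (neuron) and 0.351 (macrophage). Lower values were 0.247 (T cell), 0.198 (neutrophil), 0.173 (astrocyte) and -0.08 (B cell, 1 pair). High values were thus not particular to microglial or leukocyte lists. No such value was computed over all genes.

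**Figure D5:**
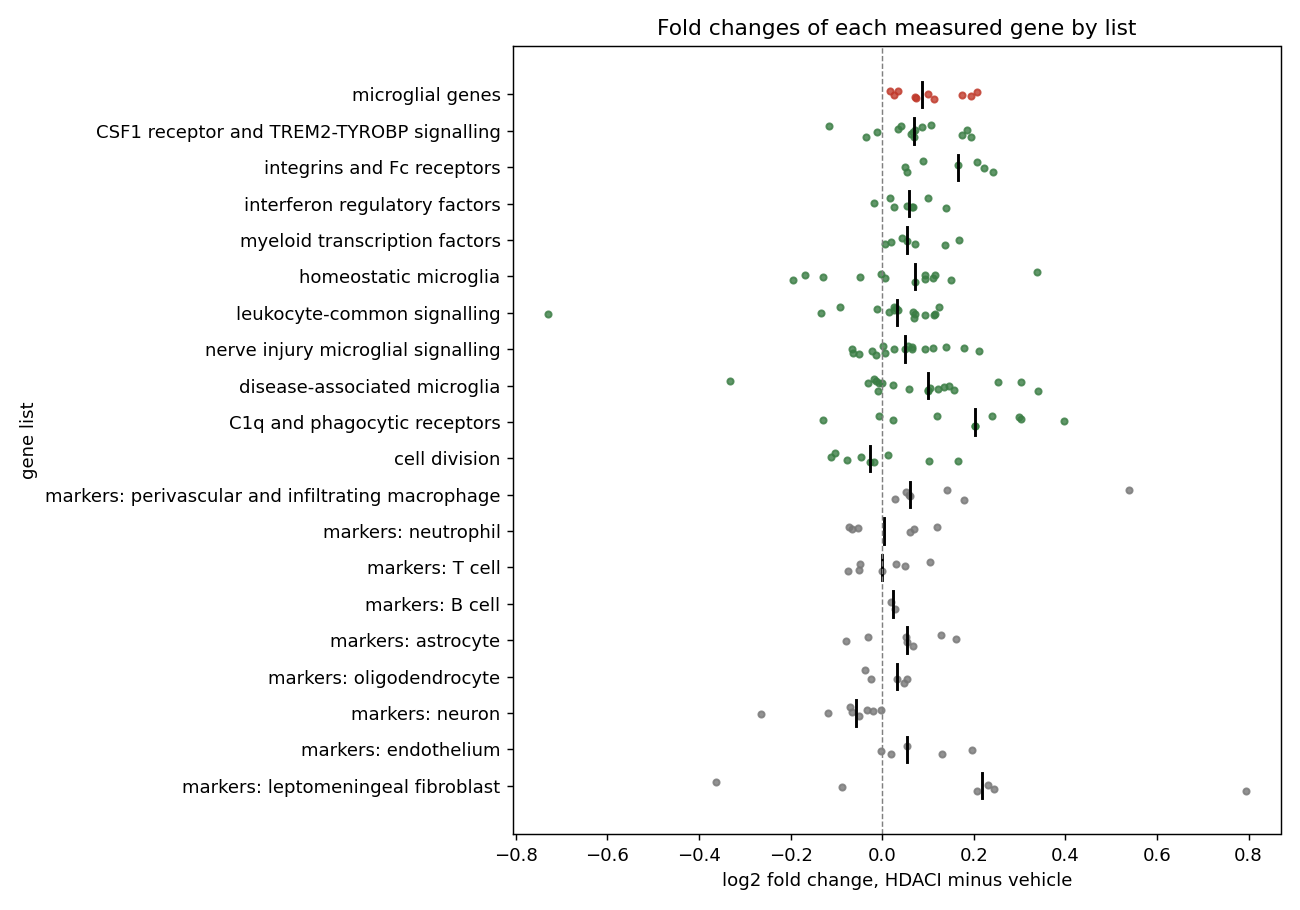
Log2 fold change, HDACI minus vehicle, of each measured gene (points, jittered vertically) with the median of each list (black bar), for the 10 microglial genes (red), related lists (green) and markers of other cell types (grey). Most medians lie close to 0, and Cybb in the leukocyte-common list is the lowest of the green points at -0.73.

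Markers of other cells were read on the same arrays. The 7 markers of perivascular and infiltrating macrophages were all above 0 (median 0.06). F13a1, a transglutaminase of such macrophages, was 0.54 (SE 0.15, adjusted p = 0.610 by limma). It passed the unadjusted threshold of 0.01, as 1.46% of all genes did in either direction. Its signals were 7.24, 7.70, 6.91 and 7.56 with HDACI and 6.79, 6.70, 6.84 and 6.91 with vehicle, so that the 4 vehicle arrays and HDACI replicate 3 lay below the 95th percentile of the olfactory receptor genes (6.93). Ms4a7 (6.09 with vehicle, 6.15 with HDACI) also lay below this percentile, and Ccr2 (6.92 and 6.98) stood at it. The mean of the 7 macrophage markers was 7.07 to 7.50 on the HDACI arrays and 6.99 to 7.28 on the vehicle arrays. It was highest on HDACI replicate 2, where the microglial genes were also highest, and lowest on vehicle replicate 1, where they were second highest on average. Markers of neutrophils (3 of 6 above 0, median 0.00, means 5.67 to 5.79 with HDACI and 5.64 to 5.82 with vehicle) lay on average below that percentile. So did the mean of T cell markers (3 of 7, median -0.00, means 6.08 to 6.16 and 5.98 to 6.21), in which Lck (6.97 with vehicle, 6.89 with HDACI) and Cd8a (6.94 and 6.89) stood at the line. Of the 2 B cell markers (2 above 0, median 0.02), Ms4a1 had a mean signal of 5.53 with vehicle and 5.55 with HDACI, and Cd79b stood above the line at 7.84 and 7.86. Ms4a7, Ccr2, Lck, Cd8a, Ms4a1 and Cd79b were named after their values were seen.

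Among resident cells, astrocyte markers were above 0 for 5 of 7 (median 0.05, means 11.99 to 12.11 with HDACI and 11.92 to 12.07 with vehicle), oligodendrocyte markers for 3 of 5 (median 0.03, means 12.47 to 12.62 and 12.46 to 12.57) and endothelial markers for 4 of 5 (median 0.05, means 9.08 to 9.40 and 9.10 to 9.21). Neuronal markers were above 0 for 0 of 8 (median -0.06, means 11.55 to 11.81 and 11.72 to 11.81). Of these 8, 1 was lower at an unadjusted p under 0.05, where 4.96% of all genes were. Their lowest mean was on HDACI replicate 2. Leptomeningeal fibroblast markers were above 0 for 4 of 6 (median 0.22), and their mean was 10.32 on HDACI replicate 2, whereas the remaining HDACI arrays held 8.73 to 9.20 and the vehicle arrays 8.69 to 9.68. HDACI replicate 2 had the highest average over the 10 genes. It also held the most signal of meningeal and endothelial markers and the least of neuronal ones. Whether these differences contribute to the microglial values was not tested. Without this array, the median log2 fold change of the 10 genes was 0.04, and 7 of 10 were above 0.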

How the data were processed

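The deposited values are log2 signals of 29214 probe sets on 8 Affymetrix Rat Gene 1.0 ST arrays, which the authors preprocessed with oligo and normalized by RMA. The sources used here give no tool version. RMA equalizes the arrays' distributions, so values are relative within an array.

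The platform annotation gave 15310 probe sets a single symbol, 323 several and 13581 none listed, and symbols were updated by Entrez number through the RefSeq GRCr8 table (15279 matched). Probe sets were averaged per gene. HDACI and vehicle (4 arrays each, grouped by title) were compared over 14506 genes with limma 3.58.1 (lmFit, eBayes) in R 4.3.3, two-sided, with Benjamini-Hochberg adjustment and no filter or block. The script was tested on simulated data. Replicate numbers were not used to pair samples. Correlations of same-numbered deviations were -0.27, 0.36, 0.04 and 0.06, too few values to show whether same-numbered samples were handled together.

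The members and lists were chosen with earlier results of these data known. The text names all 10 members, up to 4 further genes per list with the smallest unadjusted p, the 3 closest pairs and the loosest, and markers of other cells at an unadjusted p under 0.01. A few further genes were named after their values were seen. Alternatives changed the filter, normalization, variance model, array weights, probe set choice, block and each replicate. For arrays, their number limits the precision.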

Additional observations from a re-analysis of the deposited data

Results flagged for a closer look

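Of 58 groups of 4 arrays screened for a single array far from the others, 2 exceeded Dixon's 95% critical value for 4 samples, and chance alone passes about 1 in 20 groups. Both came from vehicle replicate 1. The mean log2 signal of the 9 cell division genes was 7.41 on this array, against 7.44 on each of the other 3 vehicle arrays. The mean log2 signal of the 8 neuronal markers was 11.72 on it, against 11.80 to 11.81 on the other vehicle arrays. Among the vehicle arrays this one also had the highest average over the 10 microglial genes, 0.19 log2 units above their mean over all 8 arrays. None of the 10 microglial genes met this criterion in either group.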

How the results depend on the processing

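Of 1313 values recomputed under 18 alternatives, 8 of which left out 1 array each, 1285 kept their direction and side of the threshold or stayed close in size, 15 moved and 13 changed sign. These are loose criteria. A list median counted as close if it shifted by less than the SD of its array means within groups. For the 10 genes these SDs were 0.17 with HDACI and 0.20 with vehicle, wider than their median of 0.09. A single gene could change in size and still be counted as kept. All 10 genes moved by over 1.5 times when some single array was left out. The count of microglial genes past adjustment was 0 in all 18. With array quality weights the log2 fold changes of Trem2, Irf8 and Ptprc were -0.070, -0.058 and -0.028. With 1 array left out they ranged from -0.067 to 0.16 for Trem2, from -0.11 to 0.11 for Irf8 and from -0.045 to 0.12 for Ptprc, and Irf3 ranged from -0.0081 to 0.096. The median over the 10 genes ranged from 0.03 (without vehicle replicate 4) to 0.16 (without vehicle replicate 1). The count of microglial genes at an unadjusted p under 0.05 was 0 to 1 and the median r of their pairs 0.793 to 0.882. Genes called after adjustment numbered 1 with all probe sets and 0 to 2 with 1 array left out. Genes higher at an unadjusted p under 0.05 were 232 above the median of mean signal, a filter that also removed Ptprc, and 841 with all probe sets, where 1117 were lower. The cell division median was -0.062 and -0.11 with filters at the 25th and 50th percentile of signal and -0.048 to -0.0056 with 1 array left out. With the replicate block, 0 genes and 0 of the 10 members passed adjustment, and Cybb came closest of the genes named, at an adjusted p of 0.0586. Only replicate 2 correlated best with its own number. The causes of these shifts were not tested.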
